A study of Mus musculus with 6 samples.

Results

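The nuclear RNA polymerase subunit genes are the protein-coding genes whose symbols begin with Polr1, Polr2 or Polr3 followed by a letter, 27 of the 54532 genes in the deposited table. They were measured by RNA sequencing of the myocardium of hypertrophic hearts from wild-type C57BL/6 mice of 18 weeks. The 3 control libraries came from hearts given adeno-associated virus of serotype 9 carrying EGFP (AAV9-EGFP), and 3 came from hearts given AAV9 carrying anti-miR-199a tough decoys (AAV9-anti-miR-199a-TuDs, here TuD), hairpin RNAs that bind a microRNA and hold it away from its targets. Sex, the way hypertrophy was produced, the virus dose and whether each library is a separate animal are not stated in the labels, so each p-value measures only the spread between these samples. The family was chosen because Polr2k stood far above the controls in the TuD group. That difference is therefore described without a test, and the other 26 genes entered by name alone.

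Eukaryotic nuclei hold 3 RNA polymerases. Polymerase I makes the large ribosomal RNA precursor, polymerase II makes messenger RNAs, and polymerase III makes transfer RNAs and the smallest ribosomal RNA. Each has a large catalytic pair of its own, an assembly core, a stalk, and a set of small subunits common to all of them. Polr2k encodes the smallest of the shared subunits, a zinc-binding protein. Growth of heart muscle cells is known to raise the synthesis of ribosomal and messenger RNA.

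Polr2k (ENSMUSG00000045996) lies on the plus strand at chr15:36174010-36177010 of mm10, and its annotated transcript Polr2k-202 has 489 bases, of which 177 are coding sequence with the stop codon and 312 are untranslated. The coding sequence is shown because processed pseudogenes carry almost the same letters, which bears on which gene a read is assigned to. Capitals in the Polr2k line mark bases that differ or are missing in at least 1 of the 3 copies, and capitals in the copies mark substitutions.
Polr2k: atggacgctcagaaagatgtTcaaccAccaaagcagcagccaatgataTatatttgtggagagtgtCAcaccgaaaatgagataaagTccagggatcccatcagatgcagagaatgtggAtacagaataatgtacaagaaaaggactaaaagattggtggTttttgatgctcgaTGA
Gm20305: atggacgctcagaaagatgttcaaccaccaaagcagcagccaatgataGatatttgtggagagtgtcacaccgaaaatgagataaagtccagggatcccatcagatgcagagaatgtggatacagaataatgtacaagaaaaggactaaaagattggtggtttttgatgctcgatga
Polr2k-ps: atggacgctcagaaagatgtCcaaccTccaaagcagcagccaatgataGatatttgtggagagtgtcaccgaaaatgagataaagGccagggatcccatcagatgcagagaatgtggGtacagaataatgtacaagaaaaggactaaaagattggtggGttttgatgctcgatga
The copy Gm14567 on the X chromosome (38969817 to 38969990) held 174 bases, all identical to Polr2k, and lacked only the stop codon. Gm20305, on chromosome 1 (180854282 to 180854458, minus strand), matched 176 of 177 bases and carried T49G, with the Polr2k base first and positions counted from 1 at the first base of the coding sequence. Polr2k-ps, on chromosome 11, was 95.5% identical over the alignment. Of the 620 windows of 50 bases in the Polr2k transcripts, 134 (21.6%) also occurred in a transcript of another gene.

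The decoys are labelled anti-miR-199a without a strand, so its 2 mature strands are both shown with the seed, bases 2 to 8, in capitals. No level of the microRNA is given here.
mmu-miR-199a-5p: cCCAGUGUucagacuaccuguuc
mmu-miR-199a-3p: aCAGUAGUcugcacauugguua
Both strands come from 2 loci, Mir199a-1 on chromosome 9 and Mir199a-2 on chromosome 1 (RefSeq, GRCm38.p6). For each gene the longest annotated 3′ UTR was scanned for sites of 7 or 8 bases, as ACACTGG or CACTGGA for the 5p strand and ACTACTG or CTACTGA for the 3p strand. A 5p site was present in 3 of the 27 subunit genes (11.1%), beside 25.2% of the 9552 tested genes with a 3′ UTR. A 3p site was present in 2 of 27 (7.41%), beside 14.8%. The member shares include the untested Polr3f and Polr3g, and Polr3f is among the genes with a 5p site. The scanned 3′ UTRs of the members ran from 98 bases (Polr2f) to 3963 (Polr1a). The shares were not matched for UTR length, so nothing is read from their difference. The 237 bases of the Polr2k 3′ UTR held neither. Polr2c, which encodes a subunit of the polymerase II assembly core, held 2 sites for the 5p strand. They are shown with the matching bases in capitals because Polr2c is the one tested gene with a site whose level passed the threshold.
Polr2c first 5p site: tcattctatACACTGGtaaagaaaa
Polr2c second 5p site: gcaatcccaACACTGGcagtagggg
The other 5p sites lay in Polr1e and Polr3f, and the 3p sites in Polr3a and Polr1b. A match describes letters only and does not show binding.

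The deposited FPKM (fragments per kilobase of gene and per megaread) correspond to 18.1 ± 0.115 M reads (M, megareads) a library with EGFP and 16.0 ± 0.731 M with TuD (SD, n = 3 each). Levels of single genes below are normalised FPKM, the deposited FPKM divided by a size factor of 0.985 to 1.02. The Y-linked and marker sums, the filter and the ratio of Polr2k to the other shared subunits use the deposited FPKM. Y-linked transcripts, summed over Uty, Kdm5d, Ddx3y and Eif2s3y, set 2 libraries apart: the sum in FPKM was 8.32 to 9.59 in the EGFP libraries and 12.5 in TuD replicate 3, but 0.0254 and 0.00711 in TuD replicates 1 and 2. Mitochondrial genes took 8.52 ± 3.33% of reads in the EGFP libraries and 13.7% ± 3.33 in the TuD group (SD, n = 3 each). All 7 cardiomyocyte markers passed the filter and 3 of them were called higher, with a summed level of 14700 to 17400 FPKM in the EGFP libraries and 18500 to 19600 in the TuD group. The summed level of 4 adipocyte markers was 0.0692 to 0.807 FPKM in the EGFP libraries and 3.59 to 10.5 in the TuD group, without overlap (the 1 tested was higher). The groups were also apart for 4 smooth muscle and pericyte markers (47.3 to 54.9 FPKM with EGFP, 69.2 to 102 with TuD, with 1 of 3 tested higher). The same held for 4 lymphocyte markers (2.67 to 3.45 and 4.18 to 6.73, with the 1 tested higher). The summed level of 4 erythroid markers overlapped between groups (1040 to 1450 and 1240 to 2990), with 2 of 4 tested called higher. For fibroblast, endothelial and macrophage markers the summed levels overlapped as well. Of 5 tested in each of these lists, 1 fibroblast marker was higher and 1 lower, 1 endothelial marker was higher, and no macrophage marker passed. No defining marker of any list was at 0 in all libraries. The part of these shifts in the results below was not tested, and in bulk tissue a change in the number of cells of a type cannot be told apart from a change in RNA per cell.

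Of the 27 subunit genes, 25 had an FPKM of 1 or more in 3 or more of the 6 libraries, and all of these but Polr2k, 24 genes, were tested. The genes below the filter, Polr3f and Polr3g, are described with the polymerase III genes. In the controls the levels ran from 107 ± 12.7 normalised FPKM for Polr2m to 0.517 ± 0.143 for Polr3g (SD, n = 3 each). Shared and polymerase II-specific small subunits filled ranks 2 to 8, from Polr2e at 41.0 ± 3.98 to Polr2j at 18.1 ± 0.591. Polr2k stood at rank 15 with 7.56 ± 1.58, next to Polr1c above and Polr3d below, whose control values overlapped its own. Of the 26 pairs of neighbours in this order, 10 had control values that did not overlap, among them Polr2m over Polr2e, Polr2l over Polr2f, Polr2i over Polr2j and Polr2h over Polr1a. In the other 16 pairs the control values overlapped, so their order is not settled here, and no pair was tested. Specific subunits of polymerases I and III mostly lay at the bottom of the order, with Polr3gl at 12.7 ± 1.5 and Polr3c at 8.94 ± 0.388 as the highest of them.

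**Figure D1:**
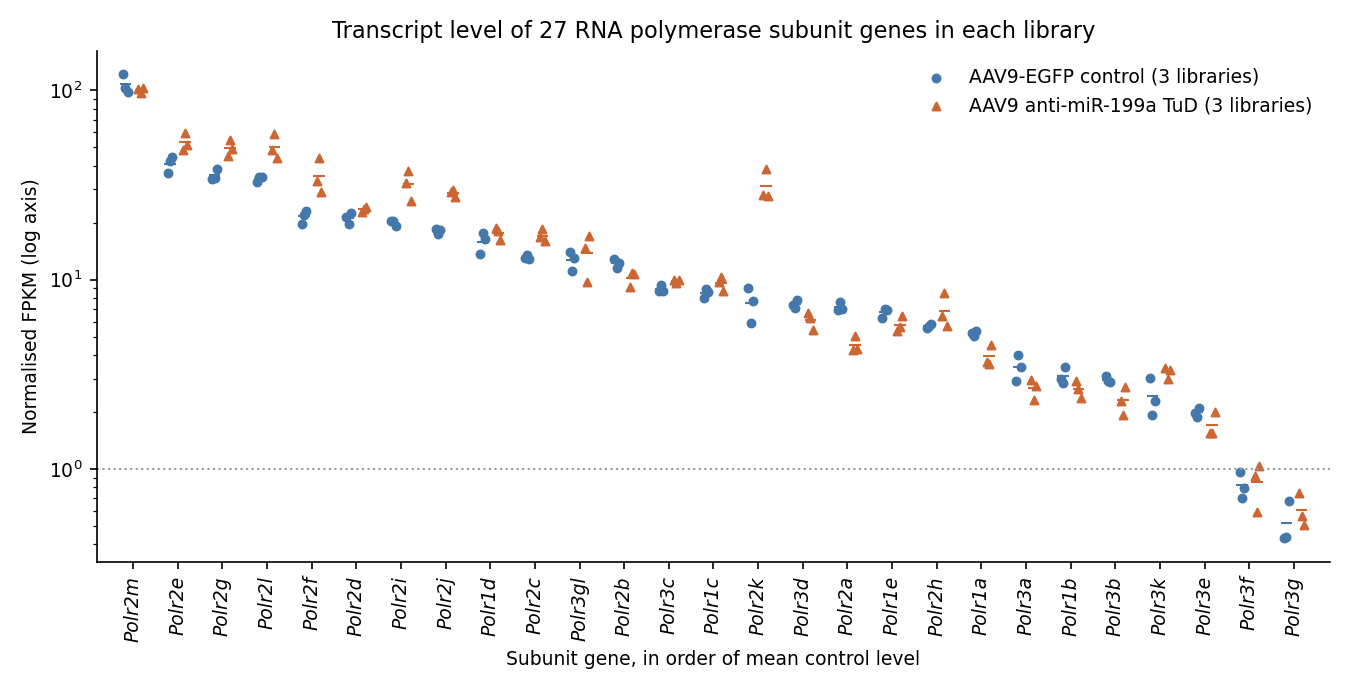
Normalised FPKM (log axis) of the 27 subunit genes in order of their mean control level, with circles for the 3 AAV9-EGFP libraries, triangles for the 3 TuD libraries and short bars for group means. The dotted line marks an FPKM of 1, below which Polr3f and Polr3g lie on average, and Polr2k rises from a control mean of 7.56 to 31.3.

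Polr2k showed the widest separation of the family. Its level was 9.09, 5.92 and 7.67 normalised FPKM in AAV9-EGFP replicates 1, 2 and 3 and 27.8, 38.6 and 27.5 in TuD replicates 1, 2 and 3. Every TuD library stood far above every control, and the lowest TuD value came from replicate 3, the TuD library that held Y-linked transcripts. The means of 7.56 ± 1.58 and 31.3 ± 6.28 (SD, n = 3 each) stood in a ratio of 4.14, a log2 difference of +1.98 ± 0.18 (SE). This rests on 107, 73 and 91 reads in the EGFP libraries and 265, 348 and 286 in the TuD group. Ordered by log2 difference, Polr2k was 24th of the 10460 tested genes and 9th of the protein-coding ones. Because this difference chose the gene, the position is a description.

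Reads assigned to the pseudogene copies moved little of this. Gm14567 received 18, 4 and 3 reads in the EGFP libraries and 25, 26 and 9 in the TuD group, while Gm20305 received 3 reads in TuD replicate 2, 1 in TuD replicate 3 and none elsewhere, and Polr2k-ps none at all. The copies together made up 3.19 to 14.4% of the summed reads in the EGFP libraries and 3.38 to 8.62% in the TuD group. With their reads added to those of Polr2k, an alternative added after seeing the data, the log2 difference was +1.97. How reads that map to several places were handled is not given in the sources used here, so the assignment between Polr2k and Gm14567 is uncertain. The difference was smaller on other scales. It was +1.49 after each library's trend with gene length was removed, +1.08 after removal of the trends with length and GC content (added after seeing the data), and +1.61 on TPM, where the median of all tested genes lay at -0.33.

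The other shared subunits lay closer to their controls. Polr2f, which encodes a subunit at the base of the clamp, was at 19.7, 22.1 and 23.0 normalised FPKM in the EGFP libraries and 33.1, 43.6 and 29.1 in the TuD group. Its groups did not overlap, and it rose by a log2 difference of 0.68 ± 0.15 (SE; limma, adjusted p = 0.0150, higher in 3 of 3 TuD libraries). Polr2l, which encodes a small zinc-binding subunit of the assembly core, was at 33.0, 34.7 and 34.7 in the EGFP libraries and 48.3, 59.0 and 43.7 in the TuD group. It rose by 0.54 ± 0.13 on the log2 scale (adjusted p = 0.0155), again without overlap. The length correction left Polr2f past the threshold (+0.61, adjusted p = 0.0185) but not Polr2l (+0.30, adjusted p = 0.0558). Polr2f did not pass without AAV9-EGFP replicate 1 (adjusted p = 0.0507), nor Polr2l without AAV9-EGFP replicate 2 (adjusted p = 0.0502). Of the 1601 windows of 50 bases in Polr2l, 337 occurred in other genes, mostly Usp50, as did 10.1% of those of Polr2f, so these counts carry some uncertainty of assignment.

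Polr2e, which encodes the shared jaw subunit, stood just outside the threshold. It was at 36.6, 42.1 and 44.3 normalised FPKM in the EGFP libraries and 48.4, 59.6 and 51.5 in the TuD group, with no overlap, a log2 difference of +0.37 ± 0.12 and an adjusted p of 0.0514. Polr2h, which encodes another small shared subunit, was at 5.58, 5.70 and 5.82 in the EGFP libraries and 6.43, 8.48 and 5.70 in the TuD group. Its groups overlapped through TuD replicate 3 (log2 difference +0.23, adjusted p = 0.255), and its sign turned after the length correction (-0.05).

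Within a library, Polr2k thus stood differently to its partners in the 2 groups. Its FPKM divided by the median FPKM of Polr2e, Polr2f, Polr2h and Polr2l was 0.345, 0.209 and 0.266 in the EGFP libraries and 0.684, 0.752 and 0.757 in the TuD group. The group means were 0.273 ± 0.0684 and 0.731 ± 0.0406 (SD, n = 3 each), and the ranges did not overlap. In all 6 libraries Polr2k nevertheless was at rank 4 of the 5 shared subunits, above Polr2h only. This ratio was chosen with the difference known and is given as a description.

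**Figure D2:**
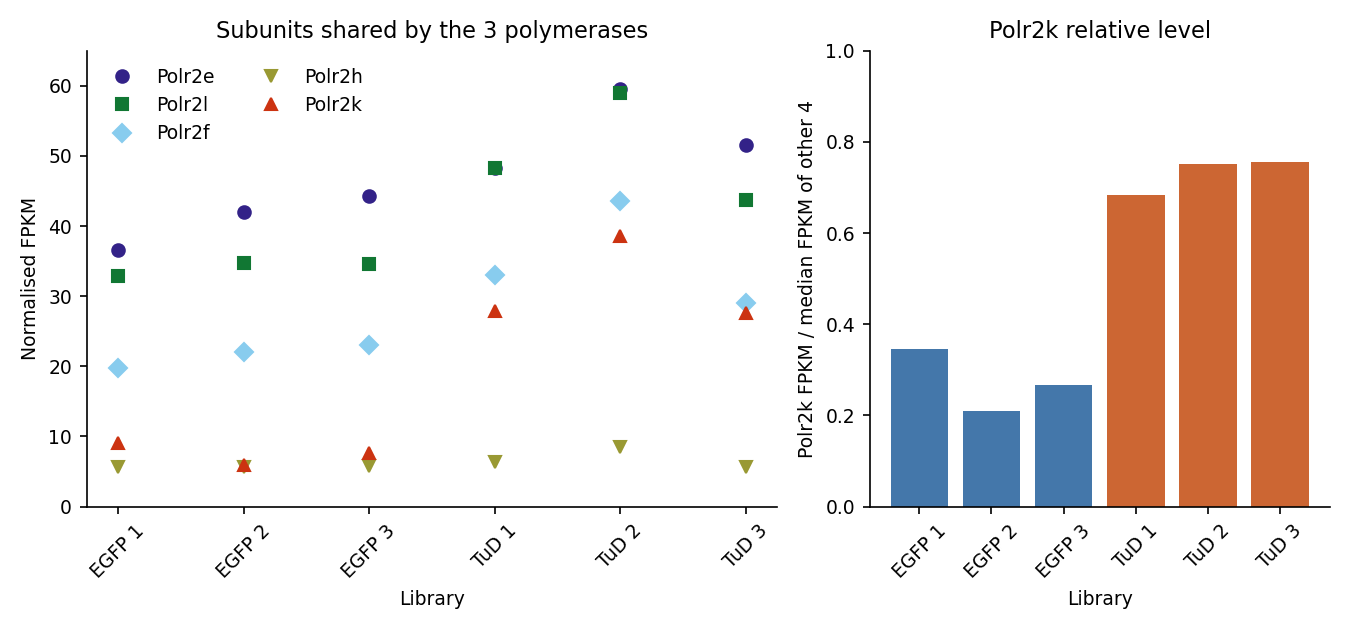
Left, normalised FPKM of the 5 subunits shared by the 3 polymerases in each of the 6 libraries. Right, the FPKM of Polr2k divided by the median FPKM of the other 4 shared subunits, 0.209 to 0.345 in the EGFP libraries and 0.684 to 0.757 in the TuD libraries.

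Polr1c and Polr1d encode the dimer that forms the assembly core of polymerases I and III. Polr1c had 8.52 ± 0.468 normalised FPKM in the EGFP libraries and 9.57 ± 0.841 in the TuD group (adjusted p = 0.294). Polr1d had 15.9 ± 2.05 and 17.6 ± 1.34 (adjusted p = 0.382). Both pairs of groups overlapped.

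The equivalent dimer of polymerase II is encoded by Polr2c and Polr2j, and both rose. Polr2j was at 18.5, 17.4 and 18.4 normalised FPKM in the EGFP libraries and 29.0, 29.7 and 27.4 in the TuD group, a log2 difference of +0.65 ± 0.09 (adjusted p = 0.00368). Its groups were narrow and far apart, although the length correction left it short of the threshold (+0.28, adjusted p = 0.0585). Polr2c was at 13.0, 13.5 and 12.9 in the EGFP libraries and 16.8, 18.5 and 16.0 in the TuD group, a log2 difference of +0.37 ± 0.10 (adjusted p = 0.0271). Its call ended without AAV9-EGFP replicate 1, 2 or 3 (adjusted p = 0.0725, 0.0717 and 0.0978) and without TuD replicate 1 or 2 (adjusted p = 0.0660 and 0.0622). Polr2c also shares 953 exonic bases on the opposite strand with Dok4, and Polr2j shares 176 with Lrwd1. The strand setting of the counting is not given in the sources used here, so reads from these overlaps cannot be told apart. Of the 5391 windows of 50 bases in Polr2c, 1409 (26.1%) also occurred in other genes. Dok4 held 760 of them and the processed pseudogene Gm11993, with 88 to 155 reads a library, held 468. The Polr2c count thus also carries uncertainty of assignment.

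Polr2i, which encodes a zinc-binding subunit used in transcript cleavage, was at 20.3, 20.5 and 19.1 normalised FPKM in the EGFP libraries and 32.5, 37.7 and 26.1 in the TuD group. It rose by 0.65 ± 0.14 on the log2 scale (adjusted p = 0.0115) with no overlap, but not after the length correction (+0.31, adjusted p = 0.0770). It shares 325 exonic bases with Tbcb on the opposite strand, so its level is uncertain in the same way. The stalk of polymerase II is formed by the products of Polr2d and Polr2g. Polr2g was at 33.9, 34.4 and 38.4 in the EGFP libraries and 44.9, 54.3 and 49.1 in the TuD group and rose by 0.47 ± 0.11 (adjusted p = 0.0170). At 868 bases it is the second shortest member after Polr2k (624 bases), and with the length trend removed its difference was +0.04 (adjusted p = 0.746). It did not pass without AAV9-EGFP replicate 1 (adjusted p = 0.0555) or 2 (adjusted p = 0.0650). Its partner Polr2d had 21.3 ± 1.5 and 23.6 ± 0.693 (adjusted p = 0.276), and its log2 difference of +0.15 turned to -0.25 after the length correction.

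The catalytic subunits lay on the other side. Polr2a encodes the largest polymerase II subunit, which carries the repeated C-terminal tail. It was at 6.91, 7.66 and 7.02 normalised FPKM in the EGFP libraries and 4.25, 5.06 and 4.29 in the TuD group. All TuD libraries were below all controls, and Polr2a fell by 0.62 on the log2 scale (SE 0.11, adjusted p = 0.00701). The call held in all 20 alternatives tried for it, with -0.48 after the length correction (adjusted p = 0.0240) and -0.68 with the Y-linked covariate (adjusted p = 0.0364). Polr2b, which completes the catalytic pair, had 12.2 ± 0.711 in the EGFP libraries and 10.2 ± 0.922 in the TuD group without overlap (log2 difference -0.25, adjusted p = 0.116), and it shares 85 exonic bases with the far more abundant Igfbp7 on the opposite strand. Across the same libraries Polr2k and Polr2a thus lay on opposite sides of their controls.

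Polr2m encodes a polymerase II-associated protein that competes with an initiation factor for the enzyme, and it was the most abundant member in every library. Its level was 121.9, 102.4 and 98.0 normalised FPKM in the EGFP libraries and 101.7, 96.3 and 103.1 in the TuD group. The groups overlapped (log2 difference -0.09, adjusted p = 0.570).

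Among the polymerase I genes, Polr1a, which encodes the largest subunit, was at 5.25, 5.02 and 5.37 normalised FPKM in the EGFP libraries and 3.69, 3.58 and 4.52 in the TuD group. The groups did not overlap, and it fell by 0.37 on the log2 scale (SE 0.12, adjusted p = 0.0467). This call ended in 11 of 20 alternatives, among them the length correction (-0.20, adjusted p = 0.213). It also ended without AAV9-EGFP replicate 1, 2 or 3 (adjusted p = 0.108, 0.1004 and 0.139, from limma) and without TuD replicate 1 or 2 (adjusted p = 0.126 and 0.114). Polr1b, which completes the catalytic pair, had 3.11 ± 0.316 and 2.64 ± 0.272 (adjusted p = 0.253). Polr1e, which encodes an initiation and elongation subunit, had 6.74 ± 0.387 and 5.79 ± 0.571 (adjusted p = 0.192). Both overlapped between groups.

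None of the 7 tested polymerase III genes passed the threshold in limma, and 3 had an unadjusted p under 0.05 (1 higher, 2 lower). The catalytic genes Polr3a and Polr3b had 3.44 ± 0.539 and 2.97 ± 0.125 normalised FPKM in the EGFP libraries and 2.67 ± 0.322 and 2.31 ± 0.388 in the TuD group (log2 differences of -0.31 each, adjusted p = 0.131 and 0.110). Polr3b did not overlap between groups, and passed when TuD replicate 3 was left out (adjusted p = 0.0442). Across the 3 enzymes, all 6 catalytic genes had negative log2 differences, from -0.62 to -0.20, and 2 of them were called lower (Polr2a and Polr1a), beside 14.3% of all tested genes. After the length correction the 6 differences ran from -0.48 to -0.09, and Polr2a alone was still called.

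Polr3d and Polr3e encode a dimer that helps open the promoter. Polr3d had 7.41 ± 0.345 in the EGFP libraries and 6.11 ± 0.630 in the TuD group without overlap (adjusted p = 0.108), and Polr3e had 1.99 ± 0.111 and 1.71 ± 0.263 (adjusted p = 0.328). Polr3k, which encodes the zinc-binding subunit for transcript cleavage and termination, had 2.42 ± 0.565 and 3.25 ± 0.228 (log2 difference +0.38, adjusted p = 0.101). Of the 19 alternatives tried for it, it passed in 1, without AAV9-EGFP replicate 1 (adjusted p = 0.0406). Polr3c, part of an initiation subcomplex, had 8.94 ± 0.388 and 9.83 ± 0.203 (adjusted p = 0.319).

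Polr3g and Polr3gl are paralogues that take the same place in the enzyme, the first known from stem cells and the second from differentiated tissue. Polr3gl was at 14.1, 11.1 and 13.0 normalised FPKM in the EGFP libraries and 14.7, 9.70 and 17.0 in the TuD group, with wide overlap (log2 difference +0.08, adjusted p = 0.778). Polr3g was at 0.431, 0.437 and 0.682 in the EGFP libraries and 0.750, 0.562 and 0.504 in the TuD group, and was below the filter. Polr3gl was the more abundant of the paralogues in each of the 6 libraries. Polr3f, another initiation subunit with 2 sites for the 5p strand, had 0.819 ± 0.132 and 0.849 ± 0.230 and was also untested.

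**Figure D3:**
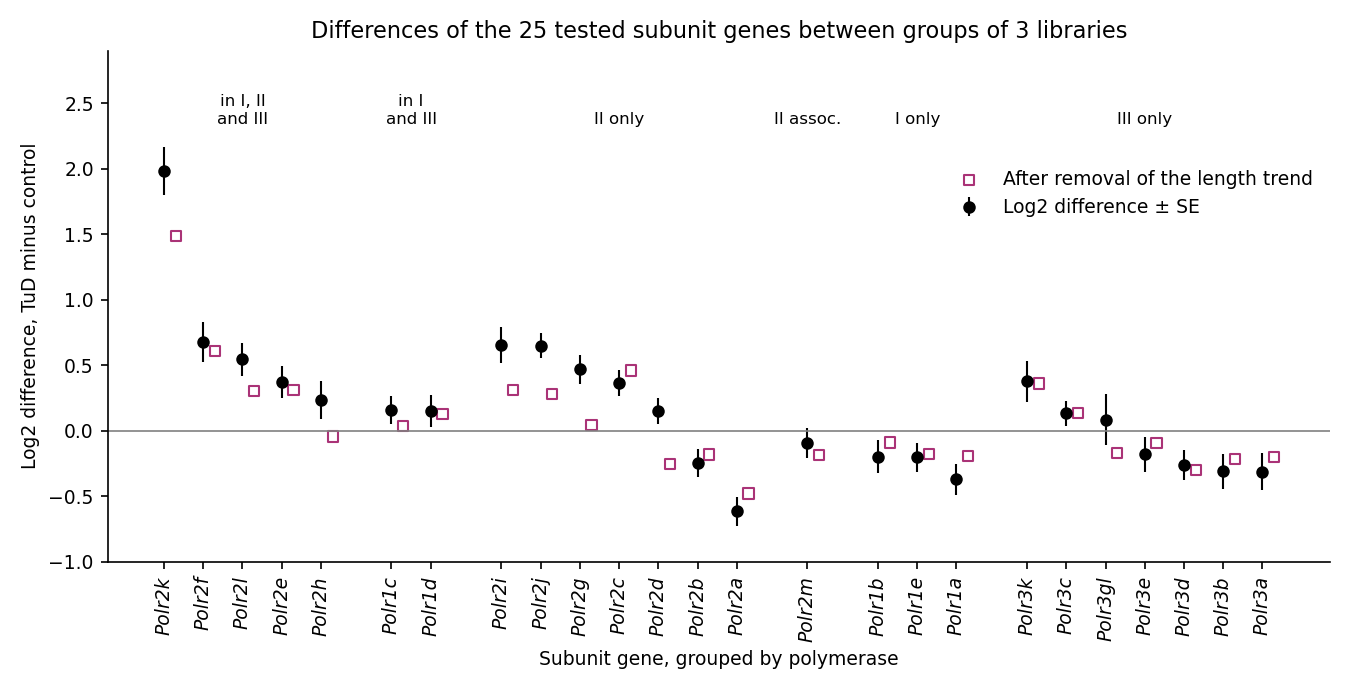
Log2 difference in level (TuD minus control) of the 25 subunit genes past the filter, grouped by the polymerases that contain them, with bars for the standard error (n = 3 libraries each) and open squares for the value after removal of the length trend. Polr2k lies at +1.98 (+1.49 corrected) and Polr2a at -0.62 (-0.48 corrected), and Polr2d, Polr2h and Polr3gl change sign with the correction.

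Polr2k, which has no test, is left out of the counts that follow. Of the other 24 genes past the filter, 6 were called higher (Polr2f, Polr2l, Polr2i, Polr2j, Polr2g and Polr2c) and 2 lower (Polr2a and Polr1a), while 16 did not pass. Over all 10460 tested genes 29.3% were called, 15.0% higher and 14.3% lower. The groups did not overlap for 14 of the 24, with the TuD group above for 9 and below for 5, beside 47.9% of all tested genes (23.5% above, 24.4% below). Since the family was chosen from this contrast, nothing is read from these shares. The median log2 difference was +0.14 over these 24 genes, +0.15 with Polr2k and +0.01 over all tested genes. By enzyme, 2 of the 4 tested shared subunits and 4 of the 7 polymerase II-specific ones were called higher. No specific subunit of polymerase I or III was called higher in limma, and 1 of them, in polymerase III, had a positive difference with an unadjusted p under 0.05.

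Scaling and library composition changed these calls. Rescaled to TPM, limma called none of the 24 higher (1 at an unadjusted p under 0.05) and 10 lower, as the whole distribution shifted by -0.33, with 4.23% of all genes called higher and 40.3% lower. With the Y-linked transcripts as a covariate, which rests the estimate on TuD replicate 3, the calls of Polr2j (higher) and Polr2a (lower) held, beside 6.22% and 5.06% of all genes. The 6 calls that ended had estimates of +0.27 to +0.46 for the higher genes and -0.18 for Polr1a. The difference of Polr2k was then +1.82.

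The members' differences were ordered by gene length. Spearman's correlation between log2 difference and length was -0.756 over the 25 members, -0.724 without Polr2k, and -0.375 over all tested genes. The points share the same 6 libraries, and genes are not independent replicates. The catalytic genes, all with negative differences, are 4667 to 11871 bases long, while the shared subunits run from 624 to 2670. After the length trend was removed in each library the correlation was -0.407 over the members and -0.33 without Polr2k. Of the 24 tested genes, Polr2f and Polr2c were then called higher and Polr2a lower, beside 11.4% and 12.7% of all genes. With the trends in both length and GC content removed, 6 were called higher and 1 lower, beside 9.11% and 10.5%, since Polr2i, Polr2j and Polr2l passed again and Polr2e joined them. Polr2k, with a transcript GC content of 38.9%, had the lowest GC content of the family.

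**Figure D4:**
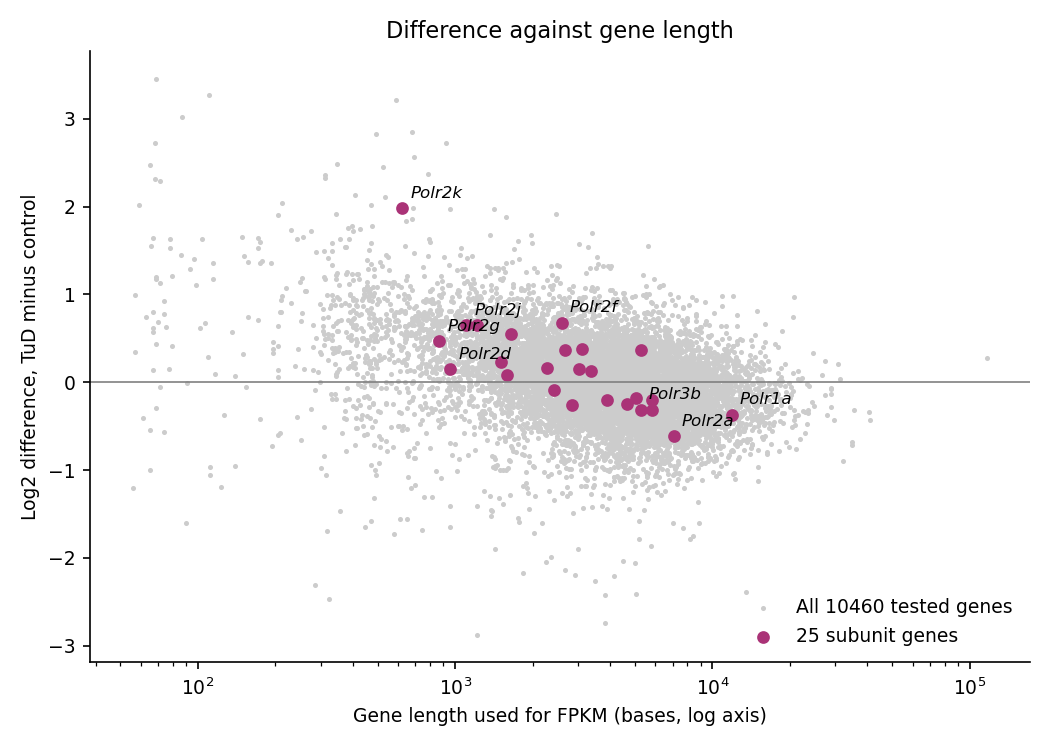
Log2 difference in level (TuD minus control) against the gene length used for FPKM (log axis) for all 10460 tested genes in grey and the 25 subunit genes in colour, 8 of them named. The subunit genes run from Polr2k at 624 bases to Polr1a at 11871 bases, with a Spearman correlation of -0.756.

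Promoter sequence around the annotated start was matched in RefSeq (GRCm38.p6) for 22 of the 27 genes. The letters ACTTCCGG, a core for ETS family factors, occurred on either strand in 5 of them (Polr1c, Polr1e, Polr2f, Polr2j and Polr3b), beside 3.89% of 32851 promoters. GGGCGG, the GC box, occurred in 14, beside 35.7%, and TATAAA in 2 (Polr2a and Polr2c), beside 13.6%. TCTCGCGA occurred in Polr1c and Polr2e, beside 0.995%. Other motifs were scanned as well. The NFY motif occurred in 7 of the 22 genes, beside 37.4% of promoters, and the E-box in 4, beside 7.15%. A shorter form of the NRF1 motif occurred in 3, beside 3.91%. The full NRF1 motif and the CRE, YY1 and SRF motifs occurred in none of the 22. The background is all promoter entries and not the tested genes, so nothing is read from these shares. The promoters of Polr2f (chr15:79141075-79141374, plus strand) and Polr2j (chr5:136116441-136116740, plus strand) are shown because both genes rose and both hold the ETS core, on the reverse strand and in capitals.
Polr2f promoter: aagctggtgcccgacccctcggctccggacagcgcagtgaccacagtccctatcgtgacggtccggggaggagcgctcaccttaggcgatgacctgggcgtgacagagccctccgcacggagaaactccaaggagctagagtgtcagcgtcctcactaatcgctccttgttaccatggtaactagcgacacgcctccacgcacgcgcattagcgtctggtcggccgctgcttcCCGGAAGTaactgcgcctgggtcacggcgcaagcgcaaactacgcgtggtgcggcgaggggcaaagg
Polr2j promoter: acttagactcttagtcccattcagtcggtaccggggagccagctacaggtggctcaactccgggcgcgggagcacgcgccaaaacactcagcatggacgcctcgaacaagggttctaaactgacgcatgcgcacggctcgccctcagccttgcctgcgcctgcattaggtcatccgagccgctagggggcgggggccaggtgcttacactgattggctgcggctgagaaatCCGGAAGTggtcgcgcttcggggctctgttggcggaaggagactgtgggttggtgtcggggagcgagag
The same core also stood in Polr1c, Polr1e and Polr3b, which did not pass the test. It stood in none of Polr2c, Polr2i and Polr2l, which were called higher, and Polr2g, also called higher, had no matched promoter.

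Genes that work with the polymerases were examined in 7 lists of 95 genes, of which 86 were tested, 7 were called higher, 8 lower and 71 did not pass, beside the 29.3% of all genes. Among polymerase II general initiation factors, 4 of 17 rose and none fell in limma (1 lower at an unadjusted p under 0.05). Over all tested genes 15.0% were higher and 14.3% lower, and the list's median log2 difference was +0.24. Gtf2a2, a subunit of TFIIA, had 5.81 ± 0.326 normalised FPKM in the EGFP libraries and 8.74 ± 0.226 in the TuD group (adjusted p = 0.00669). Gtf2h5 and Gtf2h1, both subunits of the helicase-bearing factor TFIIH, had log2 differences of +0.62 (adjusted p = 0.0112) and +0.53 (adjusted p = 0.0194). With the Y-linked covariate, which rests the estimate on TuD replicate 3, these were +0.64 and +0.45, and neither call held. With the length and GC trends removed, Gtf2a2, Gtf2h5 and Gtf2h1 did not pass (adjusted p = 0.0729, 0.0592 and 0.0770). Among TFIID subunits, which recognise the promoter, 1 of 12 was called (median +0.08). This was Taf6, which fell from 6.39 ± 0.520 to 3.29 ± 0.168 (adjusted p = 0.00253). Among 19 elongation factors (median -0.00285), Supt4a, a subunit of the factor that keeps the polymerase processive, rose from 24.8 ± 1.53 to 40.7 ± 5.23 (adjusted p = 0.00595), and Ctr9 of the PAF complex fell from 3.12 ± 0.0733 to 2.23 ± 0.229 (adjusted p = 0.0317).

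The polymerase III factors went both ways, with 2 of 16 higher and 3 lower (median +0.00548), beside 15.0% and 14.3% of all tested genes. After the length correction none was higher in limma (4 at an unadjusted p under 0.05) and 4 were lower, beside 11.4% and 12.7%. Gtf3c1, the largest subunit of TFIIIC, fell from 8.17 ± 0.561 to 5.35 ± 0.326 (adjusted p = 0.00774). Gtf3a, which recruits the enzyme to the gene of the smallest ribosomal RNA, fell from 4.36 ± 0.216 to 2.88 ± 0.129 (adjusted p = 0.00990). Snapc5, of the complex that serves small nuclear RNA genes, rose from 10.3 ± 2.13 to 18.4 ± 1.60 (adjusted p = 0.00832), but it did not pass after the length correction (adjusted p = 0.0584) or with the Y-linked covariate (adjusted p = 0.0742). Of 5 tested polymerase I initiation factors (median -0.20), 1 was called, Rrn3, which ties growth signals to the enzyme and fell from 13.5 ± 0.460 to 10.4 ± 0.604 (adjusted p = 0.0257). In the list of polymerase genes under other symbols, 4 were tested (median -0.11) and 1 was called. This was Polrmt, the mitochondrial polymerase and not a nuclear subunit, which fell from 11.5 ± 0.899 to 8.32 ± 0.941 (adjusted p = 0.0257). The nuclear subunit genes Znrd1, Cd3eap and Crcp did not pass (adjusted p = 0.906, 0.164 and 0.340). Of 13 assembly and import factors (median +0.05), 1 was called, Rpap1, which fell from 4.47 ± 0.153 to 2.75 ± 0.353 (adjusted p = 0.00879). After the length correction the lists held 7 higher and 8 lower calls, in part of other genes, beside 11.4% and 12.7% of all tested genes. Snapc5, Gtf2f1, Ssb and Ctr9 no longer passed (adjusted p = 0.0584, 0.155, 0.157 and 0.106), and Gtf2b, Mnat1 and Cdk9 (higher) and Snapc2 (lower) newly did (adjusted p = 0.0423, 0.0409, 0.0396 and 0.0117). These genes are named for that change, after their values were seen. On TPM, Snapc5 alone of the named higher genes passed (adjusted p = 0.0310). Among the genes named for the smallest p of their list, Gtf2h1, Ctr9, Rrn3 and Polrmt had the largest adjusted p. Gtf2f1 and Ssb, named for another reason, lay nearer the threshold (adjusted p = 0.0395 and 0.0368). The calls of Gtf2h1, Ctr9, Rrn3 and Polrmt each ended when any of several single libraries was left out. For all 4, these libraries included AAV9-EGFP replicates 2 and 3 and TuD replicate 2. Without AAV9-EGFP replicate 2 their adjusted p was 0.0578, 0.0964, 0.0924 and 0.0953, and without replicate 3 it was 0.0736, 0.102, 0.0855 and 0.0801. Without TuD replicate 2 it was 0.0506, 0.0781, 0.0593 and 0.0593.

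**Figure D5:**
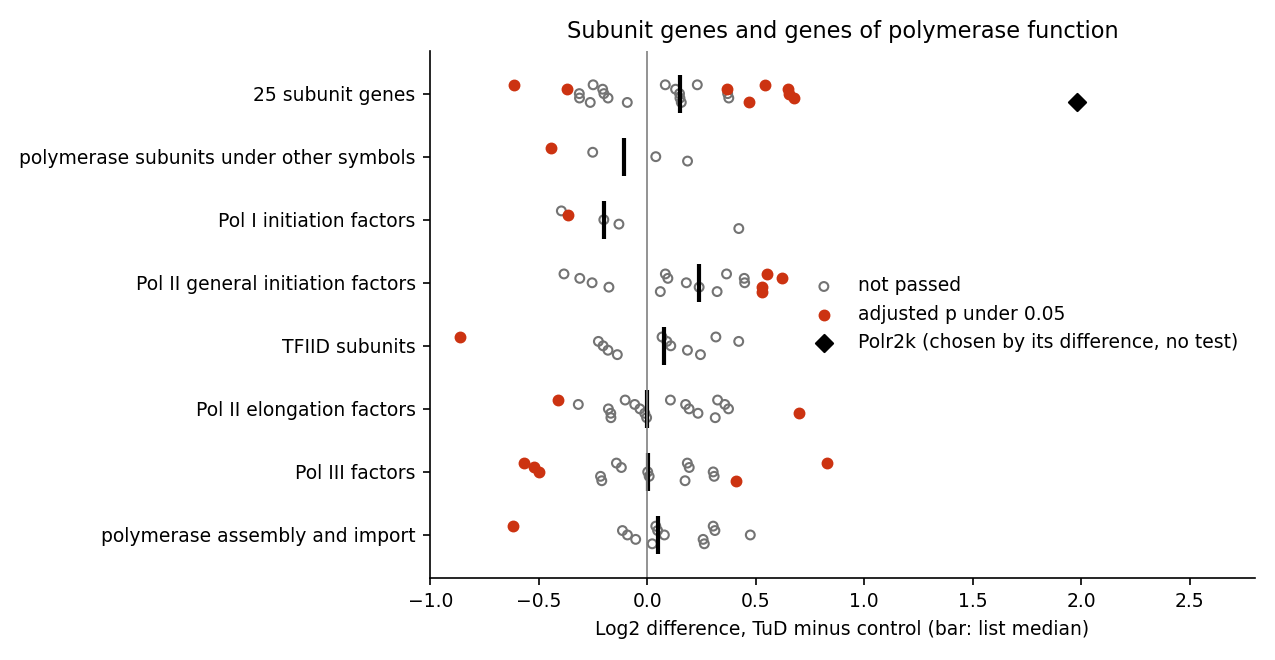
Log2 difference in level (TuD minus control) of each tested gene in the family and in 7 lists of genes that work with the polymerases, with filled circles for an adjusted p under 0.05, open circles for genes that did not pass, a diamond for Polr2k, which has no test, and a vertical bar for each list's median. The family has a median of +0.15, and Taf6 at -0.86 and Snapc5 at +0.83 are the outermost genes of the lists.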

How the data were processed

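RNA from mouse hearts in 6 samples was analysed, in 2 groups of 3 taken from the labels. The submitters' processing notes name HISAT2 2.0.5, featureCounts 1.5.0-p3 and mm10. The deposited values are FPKM with each gene's length, and their product is a whole number of reads (tolerance 0.05) for 100% of values above 0, 15.2 to 18.2 M (megareads) a library. FPKM columns were scaled by median-of-ratios size factors. The 10460 genes with an FPKM of 1 or more in 3 or more of 6 libraries entered a two-sided limma model with a mean-variance trend on log2(normalised FPKM + 0.5), adjusted over all of them by Benjamini-Hochberg, with 0.05 as the threshold. An adjusted p is from this fit unless an alternative is named beside it, in which case it is from the limma fit under that alternative. Polr2k stays in the fit but has no p and enters no count of calls. On this scale the differences of low genes are understated. A difference is TuD minus control. The length correction subtracts each library's lowess trend with log10 gene length (span 0.3).

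The members and lists were chosen with earlier results of these data known. All 27 members are accounted for, 1 further gene that matches the name pattern is not reported here, and up to 3 called genes with the smallest p are named per list. Transcripts and 3′ UTRs came from GENCODE M21 (GRCm38), in which 54409 of 54532 gene identifiers were found. Alternatives were other scalings, pseudocounts (0.1 and 1), filters (none and FPKM 5), variance models, limma-voom on recovered reads (added after the data were seen), a replicate block, a Y-linked covariate, the trend corrections and leaving out each library. The code was tested on simulated data. Tools were R 4.3.3, limma 3.58.1, Python 3.11.15, numpy 2.4.6, pandas 2.3.3 and matplotlib 3.10.9.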

Additional observations from a re-analysis of the deposited data

How the results depend on the processing

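With 73 to 107 reads, Polr2k had the fewest of the 25 subunit genes past the filter in each EGFP library. Its control level, on which the ratio rests, thus carries more relative counting error than theirs. In the TuD group it had 265 to 348 reads. Polr3f and Polr3g were too low to test. With 3 libraries a group, an exact permutation test of a single gene could not go below p = 0.10. The Polr2k log2 difference of +1.98 was +1.49 with the length trend removed, +1.08 with the length and GC trends removed and +1.61 on TPM, and ran from +1.83 to +2.12 with each library left out. The log2 ratio of Polr2k to its shared partners, +1.45, ran from +1.27 to +1.63. The 24 subunit genes other than Polr2k gave 6 higher and 2 lower calls, which became 2 and 1 with the length trend removed, 0 and 10 on TPM (limma; 1 higher at an unadjusted p under 0.05), and 1 and 1 with the Y-linked covariate. The lower count was 1 with the length and GC trends removed, without the filter, with quantile normalisation and with the replicate block. Leaving out each library gave 3 to 6 higher and 1 to 3 lower, with 3 and 1 without AAV9-EGFP replicate 2. Over all tested genes, 1565 higher and 1498 lower calls became 442 and 4214 on TPM, 651 and 529 with the Y-linked covariate, 1010 and 956 without the filter, and 952 higher with the length and GC trends removed. They ranged from 892 to 1704 higher and 747 to 1605 lower with each library left out.

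Same-numbered libraries deviated together with correlations of 0.0637, 0.0882 and -0.0554, so the numbers were not taken as pairs, and the replicate block called 1462 genes higher and 1199 lower, with 5 and 1 among the 24 subunit genes.

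Signs turned for 18 single-gene values, and of those genes Polr2c alone had passed the test. On TPM, where the all-gene median was -0.33, these were Polr1c (-0.21), Polr1d (-0.23), Polr2c (-0.010), Polr2d (-0.23), Polr2e (-0.014), Polr2h (-0.13), Polr3c (-0.24) and Polr3gl (-0.29). With the length trend removed they were Polr2d (-0.25), Polr2h (-0.045) and Polr3gl (-0.17), and with length and GC Polr2d (-0.24) and Polr3gl (-0.10). With the Y-linked covariate they were Polr2h (-0.0016) and Polr3e (+0.012). Leaving out each library, Polr2m ran from -0.15 to +0.0019 (without AAV9-EGFP replicate 1), and Polr3gl from -0.082 (without TuD replicate 3) to +0.31, at -0.0080 without AAV9-EGFP replicate 2. Of the others, 603 kept direction and side of the threshold, 78 no longer passed and 12 newly passed. The planned limma-voom fit with TMM scaling was not run, and one with median-of-ratios scaling called 6 of the 24 higher and 2 lower. The cause of these shifts was not tested.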
